A study of Caenorhabditis elegans with 4 samples.

Results

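The centre of chromosome V is the stretch between the chromosome's arms, taken here as positions 5900000 to 16550000 of the WS220 build (10.65 Mb, 51.0% of the chromosome up to its highest peak end). Its members are the 737 peaks of the series-wide list whose midpoint lies between those positions, out of 9214 peaks in that list and 1576 on chromosome V. They come from a chromatin immunoprecipitation experiment with sequencing (ChIP-seq) on whole adult Caenorhabditis elegans, with 2 ChIP samples and 2 input samples, each of genotype fem-2(b245)III, hermaphrodite and kept at 20 degrees Celsius, with no other genotype or treatment to set against them. The stage is labelled as a young adult with a germline, while the growth protocol describes gravid adults, and fem-2 encodes a phosphatase that promotes male fates in sex determination. The sample titles name the antibody SDQ3898 against KLE-2, whereas the antibody record names SDQ2901 against CEC-1, so the immunoprecipitated protein is left unnamed and the ChIP samples are given as replicate 1 and replicate 2. The input samples enter no value below.

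KLE-2 is a kleisin subunit of condensin II, a ring-shaped complex built on a pair of SMC ATPases that folds and compacts chromosomes in mitosis and meiosis. CEC-1 is a chromodomain protein, a class that binds methylated histone tails. Centres of C. elegans autosomes recombine rarely and hold many broadly expressed and essential genes, whereas the arms recombine more often and are richer in repeats and in methylation of histone H3 lysine 9. The deposited lists give each peak a position and a score without a stated scale, so scores are ranked within a list. A score of 3100 recurs in both replicate lists, and peaks at that value cannot be ranked among themselves. Some peaks outside the centre of V scored higher, up to 3202 in replicate 1 and 3233 in replicate 2, while no replicate peak in the centre exceeded 3100.

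The replicate lists differed greatly in length. In the centre of V, replicate 1 had 115 peaks (10.8 per Mb, exact 95% Poisson interval 8.91 to 13.0) and replicate 2 had 560 (52.6 per Mb, 48.3 to 57.1). The list for the series had 737 (69.2 per Mb, 64.3 to 74.4). The peaks covered 193 kb (1.81% of the sequence) in replicate 1, 706 kb (6.63%) in replicate 2 and 367 kb (3.44%) in the series-wide list. All intervals in the text cover counting error alone, and neighbouring peaks are not independent. With 2 replicates and no second condition, differences between regions were described and not tested.

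Peak density in the centre of V was lower than in the middle of every other autosome, in each of the 3 lists. The centre had 69.2 series-wide peaks per Mb, against 84.0 to 123 per Mb in the middle 50% of the length of chromosomes I to IV. In replicate 2 it had 52.6 per Mb against 65.1 to 92.6. In replicate 1 it had 10.8 per Mb against 12.3 to 15.1, and there its interval (8.91 to 13.0) overlapped those of chromosomes I (11.0 to 16.4), II (12.4 to 18.1), III (11.9 to 17.8) and IV (10.1 to 14.9). The middle 50% of X was sparser than the centre of V in all 3 lists, with 32.6 series-wide peaks per Mb, 2.60 in replicate 1 and 24.4 in replicate 2.

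**Figure D1:**
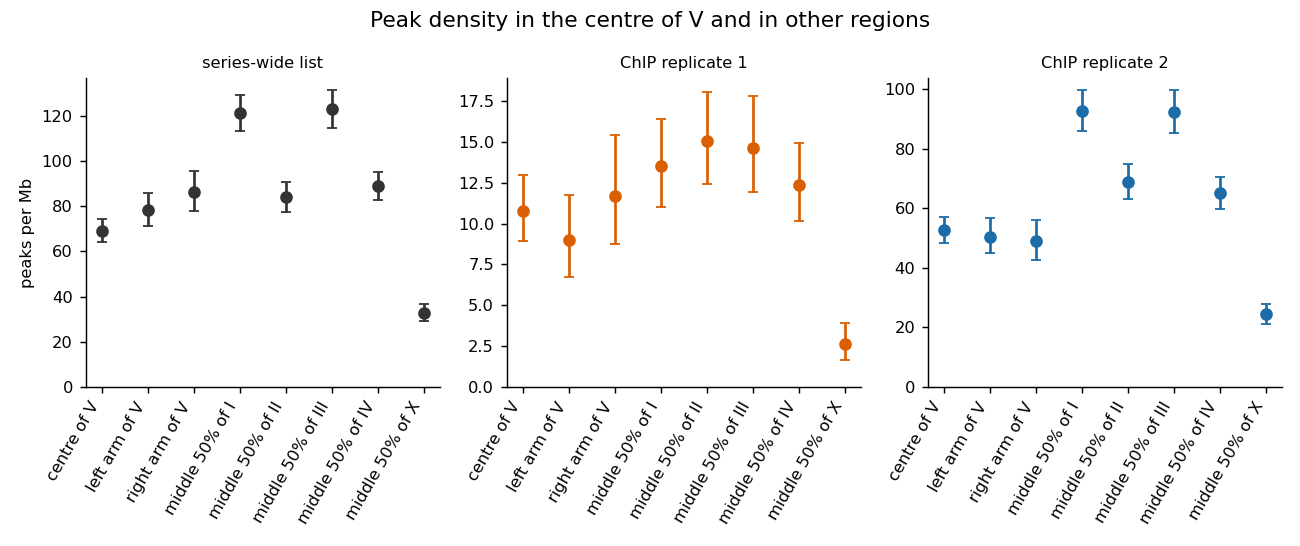
Peaks per Mb in the centre of V, the arms of V and the middle 50% of the other chromosomes, in a panel for each list, with exact 95% Poisson intervals as bars. The centre of V stands at 69.2, 10.8 and 52.6 per Mb in the series-wide, replicate 1 and replicate 2 lists, below the middle of chromosomes I to IV and above that of X.

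Within chromosome V, the contrast between centre and arms depended on the list. The arms are here all of V to the left and to the right of the centre. In the series-wide list the centre had 69.2 peaks per Mb, against 78.5 on the left arm and 86.4 on the right arm, a ratio of centre to rest of 0.846 (95% interval 0.765 to 0.935). In replicate 1 the ratio was 1.06 (0.809 to 1.40), from 115 peaks in the centre and 104 outside it. In replicate 2 it was 1.06 (0.934 to 1.19), from 560 peaks in the centre and 511 outside it. The direction in the series-wide list was therefore not seen in the ratio of either replicate list. Both replicate intervals included equal density, and that of replicate 1 also included 0.846. Replicate 1 had 8.98 peaks per Mb on the left arm, 10.8 in the centre and 11.7 on the right arm, so its arms lay on opposite sides of the centre. Replicate 2 had 50.5, 52.6 and 48.9 per Mb in the same order.

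Grouped by score, weak peaks were sparser and strong peaks denser in the centre than in the rest of V. Quartiles of score were set over all 9212 nuclear peaks of the series-wide list. In the lowest quartile (scores 1.31 to 4.92) the centre held 156 peaks and the rest of V 250, a density ratio of 0.601 (0.489 to 0.737). The ratio was 0.708 (0.575 to 0.870) in the second quartile and 0.823 (0.674 to 1.00) in the third. In the highest quartile (33.16 to 246.9) the centre held 228 peaks and the rest of V 145, a ratio of 1.51 (1.22 to 1.88). Grouped by its own scores, replicate 2 gave ratios of 0.745 (0.582 to 0.952), 0.829 (0.647 to 1.06), 1.45 (1.13 to 1.87) and 1.42 (1.10 to 1.84) from the lowest to the highest quartile. Replicate 1, with too few peaks for quartiles, did not show the same order, with 1.15 (0.764 to 1.73) in its lower-scored 50% and 0.996 (0.681 to 1.46) in its higher-scored 50%.

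The same split was then made on each chromosome with the middle and outer 50% of its length, to place chromosome V. In the highest quartile the middle of V held 1.59 times as many series-wide peaks as its outer parts, with 229 against 144. This ratio was 1.36 on III, 1.17 on II, 1.02 on I, 1.02 on IV and 0.534 on X. A high ratio is not a high density. The middle of I, II, III and IV held 263, 214, 286 and 216 such peaks in 7.54, 7.64, 6.89 and 8.75 Mb. The centre of V held 228 in 10.65 Mb, fewer per Mb than any of these. The outer parts of V, with 144, also held fewer than those of I to IV, with 183 to 257. In the lowest quartile the ratio on V was 0.657, within the range of 0.572 to 0.802 of the other chromosomes. These ratios were not tested against each other.

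In the series-wide list the members had higher scores and greater widths than the peaks on the arms of V. The median series-wide score was 13.65 in the centre (order-statistic 95% interval 11.75 to 16.1), against 7.81 on the left arm (6.84 to 9.26) and 7.59 on the right arm (6.42 to 8.79). The medians of the middle 50% of chromosomes I to IV were 12.4, 13.9, 14.2 and 10.2, so the centre of V lay inside their range. The median width was 347 bp in the centre (335 to 365 bp), against 294 bp on the left arm (272 to 324 bp) and 300 bp on the right arm (285 to 320 bp). In the middle 50% of chromosomes I to IV it was 353.5, 350.5, 352 and 351 bp, close to the centre of V. In replicate 2 the median width was 1022 bp in the centre (968 to 1072 bp), 1018 bp on the left arm (944 to 1080 bp) and 871 bp on the right arm (826 to 956 bp), so the centre and the left arm did not differ beyond their intervals. In replicate 1 it was 1238 bp in the centre (1113 to 1385 bp), 1115 bp on the left arm (1017 to 1619 bp) and 1287 bp on the right arm (1111 to 1626 bp), and the intervals overlapped. In replicate 2 the median score was also higher in the centre (640, interval 506 to 755) than on the right arm (259, 191 to 336). On the left arm it was 366 (279 to 558), and that interval overlapped the interval of the centre. In replicate 1 the median scores were 158 in the centre (109 to 217), 177 on the left arm (97.6 to 318) and 168 on the right arm (100.2 to 241), and their intervals overlapped. Of the members, 93 (12.6%) belonged to the 10% of series-wide peaks that scored highest and 58 (7.87%) to the 10% with the lowest.

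Along the centre, density varied from one 1 Mb window to the next. Windows were counted from the left boundary, and the last was 0.65 Mb long. Whole-series counts in the 10 full windows were 94, 52, 74, 58, 69, 73, 54, 65, 81 and 71, and the short window had 46 (70.8 per Mb). The densest was the first, next to the left boundary, and the sparsest was its neighbour. Replicate 1 had 22, 7, 4, 10, 8, 14, 9, 7, 17 and 12 peaks in the full windows and 5 in the short one. Replicate 2 had 58, 40, 59, 47, 62, 60, 42, 58, 65 and 45, and then 24. The second and the seventh windows were low in the series-wide list and in replicate 2, and the ninth was high in all 3 lists.

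**Figure D2:**
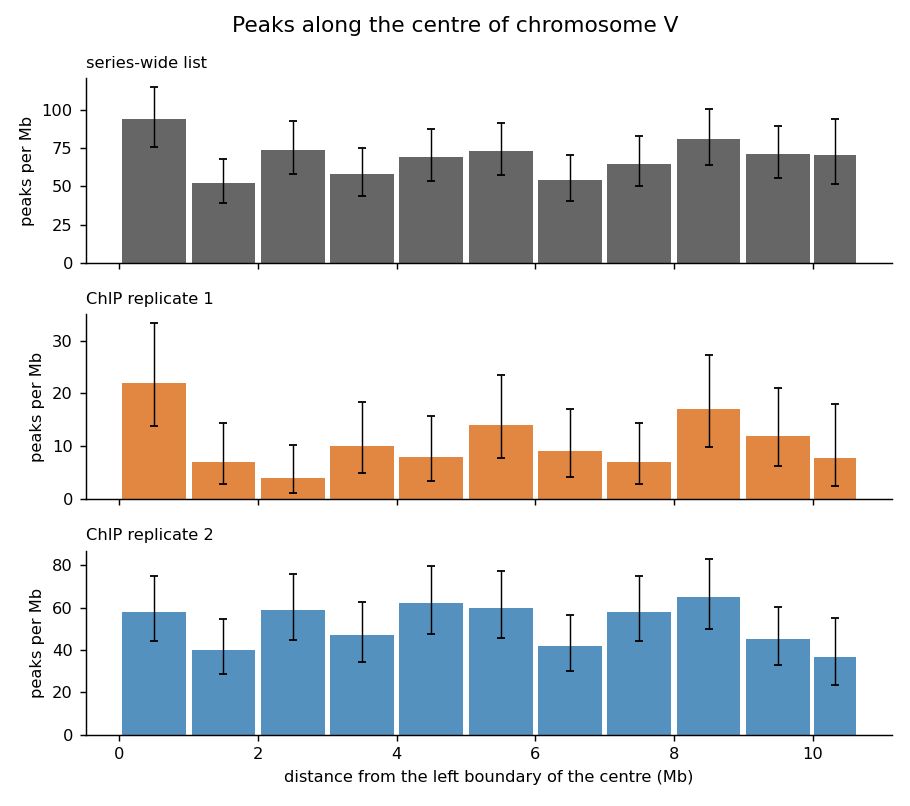
Peaks per Mb in 1 Mb windows along the centre of V (the last window is 0.65 Mb), against the distance from its left boundary in Mb, in a panel for each list, with exact 95% Poisson intervals. The window at the left boundary is the densest in the series-wide list (94 peaks) and in replicate 1 (22 peaks), and not in replicate 2 (58 peaks).

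The first window held a run of 24 series-wide peaks, described below. Without that run it had 70 series-wide peaks, 14 replicate 1 peaks and 54 replicate 2 peaks. In the series-wide list the right end of the centre stood apart in the scores of its peaks. Replicate 2 had peaks with a score of 3100 in both windows there, and medians of replicate scores by window were not compared. Median series-wide scores were 8.38 in the last full window and 8.54 in the short window, against 12.35 to 18.19 in the 9 others. The share of members found in neither replicate was 31.0% and 34.8% in those 2 windows, against 11.1% to 25% in the others.

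At a finer scale the 106 full windows of 100 kb held a median of 7 series-wide peaks (interquartile range 5 to 8). The densest window was chromosome V from 6000001 to 6100000, with 30 series-wide, 8 replicate 1 and 9 replicate 2 peaks. It was followed by V from 15500001 to 15600000, with 20 series-wide peaks, and V from 13000001 to 13100000, with 15. Windows with no series-wide peak were V from 7300001 to 7400000, where neither replicate had a peak, and V from 16100001 to 16200000, where replicate 1 had 1 peak and replicate 2 had none. The third sparsest, V from 9100001 to 9200000, held 1 series-wide peak. Counts in these windows went together between lists, with Spearman's rho of 0.75 between the series-wide list and replicate 2, 0.45 between the series-wide list and replicate 1, and 0.42 between the replicates. These values describe 106 windows of 1 chromosome, and the series-wide list may rest on the same reads as the replicates. Replicate 1 had no peak in 43 of the 106 windows and a median of 1, so the 2 values that involve it rest on many ties.

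Most members overlapped a peak of a replicate list, which for most of them was replicate 2. The series-wide list may rest on the same reads as the replicates. Overlap with them, here and below, is therefore not independent recovery. A peak of replicate 2 overlapped 571 of the 737 members by at least 1 bp (77.5%, exact 95% interval 74.3 to 80.4%), against 75.3% of all nuclear series-wide peaks. A peak of replicate 1 overlapped 135 (18.3%, 15.6 to 21.3%), against 15.8% of all. Both replicates overlapped 117 members (15.9%, 13.3 to 18.7%, against 14.3% of all) and replicate 2 alone 454 (61.6%, against 61% of all). Replicate 1 alone overlapped 18 (2.44%, 1.45 to 3.83%, against 1.49% of all), and 148 were in neither (20.1%, 17.2 to 23.2%, against 23.2% of all). These shares lay near those of the whole list. On chromosome V itself, the share in neither replicate was 20.1% in the centre, against 28.3% on the left arm (24.2 to 32.6%) and 33.5% on the right arm (28.8 to 38.5%). In the middle 50% of chromosomes I to IV it was 17.6%, 13.7%, 14.7% and 22.1%.

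Replicate overlap followed the series-wide score. In the lowest quartile of the members by score (1.36 to 5.58), 92 of 185 were in neither replicate (49.7%, 42.3 to 57.2%) and 11 in both (5.95%). In the second quartile (5.59 to 13.65) 48 of 184 were in neither (26.1%) and 11 in both (5.98%). In the third (13.82 to 43.34) 8 of 184 were in neither (4.35%) and 18 in both (9.78%). All 184 members of the highest quartile (44.21 to 245.34) overlapped a replicate 2 peak, and 77 of them also a replicate 1 peak (41.8%, 34.6 to 49.3%). Of the 18 members in replicate 1 alone, 14 were in the second quartile and 4 in the third.

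**Figure D3:**
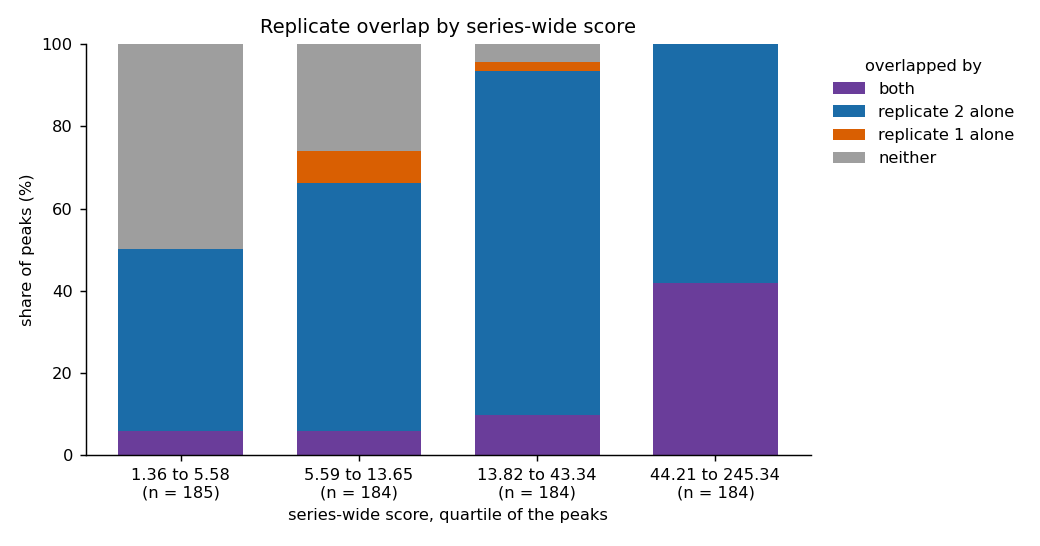
Share in percent of the members overlapped by both replicates, replicate 2 alone, replicate 1 alone or neither, in 4 groups by series-wide score (184 or 185 peaks each). The share in neither runs from 49.7% in the lowest group to 0 of 184 in the highest, and the share in both from 5.95% to 41.8%.

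Members on a replicate 2 peak sat near its middle, which was less clear for members on a replicate 1 peak. For the 571 members on a replicate 2 peak, the distance between the midpoints had a median of 68.5 bp (interquartile range 27.5 to 227 bp), and 552 of them (96.7%) lay wholly inside that peak. For the 135 members on a replicate 1 peak the median distance was 158 bp (41.2 to 462 bp), and 104 (77.0%) lay wholly inside it. Replicate peaks were wider, with a median ratio of replicate to series-wide width of 2.85 in replicate 2 and 1.99 in replicate 1. Whole-series score and replicate score at the same place were related in rank with rho = 0.64 over the 571 members on replicate 2 and rho = 0.20 over the 135 on replicate 1. Several members can share 1 replicate peak, so these pairs are not independent. The lists may also rest on the same reads, which by itself would relate their scores.

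Members on a replicate 2 peak with a score of 3100 had higher median series-wide scores and widths than those on replicate 2 peaks that scored less. There were 137 such members. In the centre, 96 replicate 2 peaks had that score (17.1% of its peaks there, against 16.2% of all its peaks at 3100 or more). In replicate 1, 6 of 115 peaks in the centre reached that score (5.22%, against 3.9% of all its peaks at 3100 or more). The 137 members had a median series-wide score of 105 and a median width of 643 bp, and 71 of them (51.8%) were also on a replicate 1 peak. The 434 members on a replicate 2 peak below that score had medians of 17.35 and 338 bp, and 46 (10.6%) were on a replicate 1 peak. Of the 137, 45 were under 500 bp wide.

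Members ranged in width from 146 to 9333 bp, and wide members tended to have high scores (Spearman's rho = 0.67 over the 737 members, against 0.69 over all 9212 nuclear peaks). Widths under 200 bp were found for 132 members, with a median score of 4.53, of which 60 (45.5%) were in neither replicate. Another 394 were at least 200 and under 500 bp wide (median score 14.32), 154 were at least 500 and under 1000 bp wide (40.62), and 43 were at least 1000 and under 2000 bp wide (91.68). The 14 members of 2000 bp or more (1.90%, against 1.52% of all nuclear peaks) had a median score of 137 and made up 13.5% of the sequence covered by members. Of these 14, 11 were in both replicates and 3 in neither.

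**Figure D4:**
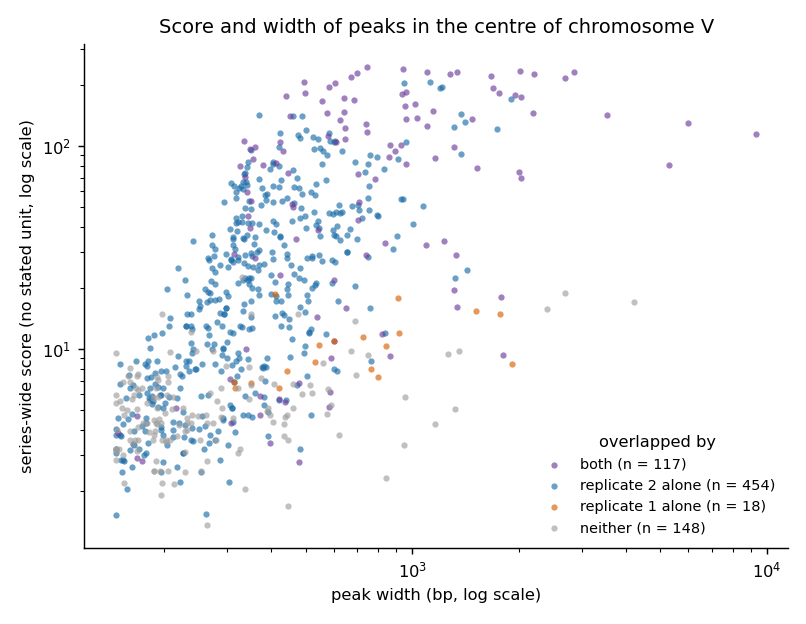
Whole-series score against width in bp for the 737 members, both axes on a log scale, coloured by the replicate lists that overlap them. Members in both replicates (117) lie mostly at the upper right and members in neither (148) at the lower left, and 3 of those in neither are wider than 2000 bp with scores of 15.72 to 18.95.

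The strongest members found in both replicates are given next. The 10 highest had series-wide scores of 220.6 to 245.34 and widths of 696 to 2857 bp (median 1308 bp), and all 10 had a score of 3100 in replicate 2. Replicate 1 gave the same places scores from 89.7 to 1537. The highest lay at V from 10896951 to 10897696 (746 bp, score 245.34, with 497 in replicate 1). The second lay at V from 14038358 to 14039299 (942 bp, score 239.34) and had the highest replicate 1 score of the 10, at 1537. The third, at V from 6090821 to 6092829 (2009 bp, score 234.6), belonged to the run of 24 peaks. The last, at V from 14124091 to 14125755 (1665 bp, score 220.6), had the lowest replicate 1 score of the 10, at 89.7.

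Of the other sites, V from 6299136 to 6300233 (score 232.24), V from 6587537 to 6588876 (231.04), V from 7236904 to 7237599 (229.53) and V from 7718179 to 7721035 (231.37) lay in the left part of the centre, as did the third. The remaining 4, which are the second, the last, V from 13882056 to 13883331 (226.2) and V from 14154395 to 14156597 (227.41), stood within 275 kb of each other. The site at V 7236904 to 7237599 bordered the longest gap in the centre.

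Replicate 1 had no peak at some of the strong members. The 5 highest-scored members in replicate 2 alone had series-wide scores of 170.79 to 206.68, widths of 950 to 1893 bp and a replicate 2 score of 3100. They lay at V from 6500015 to 6501134 (score 206.68), from 6984520 to 6985469 (204.27), from 15189268 to 15190481 (195.81), from 8315541 to 8316740 (192.58) and from 10267791 to 10269683 (170.79). Members in replicate 1 alone were weaker in the series-wide list, with scores from 6.42 to 18.65 and a median width of 666 bp. The highest of them, V from 16406572 to 16406981 (410 bp, score 18.65), lay inside a replicate 1 peak of 2640 bp with a score of 2781. A replicate 2 peak from 16404849 to 16406030 (score 1355) overlapped that replicate 1 peak but ended before the member. Another member in replicate 1 alone, V from 14587428 to 14588940 (1513 bp, score 15.4), lay inside a replicate 1 peak of 5910 bp with a score of 759.

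Wide members outlined domains that the replicates called with nearly the same ends. The widest lay at V from 7915722 to 7925054 (9333 bp, score 114.83). Replicate 1 had a peak from 7915355 to 7925477 there and replicate 2 a peak from 7915116 to 7925332, both with a score of 3100. A second member, V from 7912704 to 7914395 (1692 bp, score 192.13), preceded it, and replicate 1 scored 3093 and replicate 2 3100 there. The next widest, V from 9338478 to 9344450 (5973 bp, score 130.28), also had 3100 in both replicates, with replicate widths of 6200 bp in replicate 1 and 6564 bp in replicate 2.

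Other wide members were cut differently by the 3 lists. At V from 10018216 to 10023511 (5296 bp, score 80.72), replicate 1 had 1 peak of 9154 bp that also contained the neighbouring member at V from 10025616 to 10026923 (score 19.56). Replicate 2 had 2 peaks there, of 6504 and 2553 bp. At V from 14685183 to 14688718 (3536 bp, score 142.85), both replicates joined the member with its neighbour, in peaks of 4893 bp in replicate 1 and 4921 bp in replicate 2.

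A different kind of wide member had no replicate peak. The 3 such members of 2000 bp or more scored 15.72 to 18.95. These scores were low against the median of 137 for members of that width, but above the median of all members (13.65). The member at V from 10605631 to 10609848 (4218 bp, score 17.04) was followed by 3 more members up to 10612426, with scores of 4.27, 14.96 and 7.5, and all 4 were in neither replicate. The run at V from 9428388 to 9435076 held 4 members that covered 90.3% of its 6.69 kb, with scores of 6.12 to 18.95, and all were in neither replicate. Its widest member, V from 9428388 to 9431076, had 2689 bp and a score of 18.95. The highest score in neither replicate was 22.55, at V from 10450587 to 10450917 (331 bp). Of the 148 members in neither replicate, 8 had a score at or above the median of all members (13.65). Their nearest replicate peak was a median of 6050 bp away (interquartile range 1555 to 20613 bp), and 42 (28.4%) were within 2000 bp of one.

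The spacing of members ranged from close neighbours to long gaps. The gap between neighbouring members had a median of 5567 bp, an interquartile range of 966 to 20828 bp and a maximum of 175838 bp. Of the 736 gaps, 252 (34.2%, 30.8 to 37.8%) were under 2000 bp, against 40.2% over all nuclear peaks. It was 19.2% when peaks less than 500 bp apart were merged, and also 19.2% among the members in the higher-scored 50% of the series-wide list. The share of 34.2% was lower than on the left arm (42.6%) and the right arm (43.7%). In the middle 50% of chromosomes I to IV it was 40.4%, 33.9%, 39.0% and 40.7%. In replicate 2 it was 26.3% of 559 gaps in the centre of V, against 34.0% on the left arm and 24.5% on the right arm. In replicate 1 it was 11.4% of 114 gaps, against 5.77% on the left arm and 20% on the right arm. The order of centre and arms thus differed between lists.

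When members with gaps under 2000 bp were joined, 341 stood alone (46.3%), 176 formed 88 pairs, 158 formed 48 groups of 3 to 4, and 62 formed 8 runs of 5 or more. Lone members had a median score of 17.26, paired members 13.08, members of groups of 3 to 4 11.96 and members of runs 7.07. The share in neither replicate was 17.0% for lone members, 17.6% for pairs, 20.9% for groups of 3 to 4 and 41.9% for runs (26 of 62).

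The run with most peaks lay at V from 6070891 to 6096131, near the left boundary of the centre. Its 24 members covered 78.2% of 25.2 kb, no gap in it exceeded 759 bp, and 15 of the 24 were on replicate 1 peaks and 6 on replicate 2 peaks. It held 11 of the 18 members of the centre that were in replicate 1 alone. Scores in it were uneven. The members at V from 6070891 to 6072911 (174.33), from 6088682 to 6089324 (171.89) and from 6090821 to 6092829 (234.6) were high and were in both replicates. The other 21 scored between 2.05 and 42.78. Replicate 1 had 8 peaks across the run, the highest at 3100, and replicate 2 had 4.

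**Figure D5:**
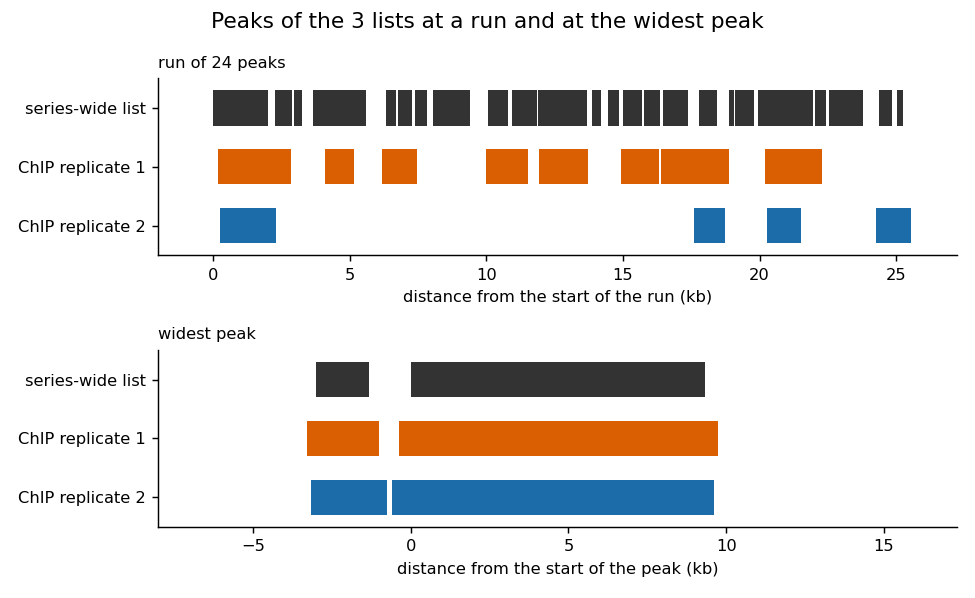
Peaks of the 3 lists as boxes, against the distance in kb from the start of the run of 24 members (upper panel) and from the start of the widest member (lower panel). Along the run replicate 1 has 8 peaks and replicate 2 has 4, while the widest member, of 9333 bp, is matched by 1 peak of 10123 bp in replicate 1 and 1 of 10217 bp in replicate 2.

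The runs with the next most peaks had far fewer. The run at V from 15582354 to 15590531 had 7 members with a median score of 6.42, of which 3 were on replicate 2 peaks and 1 on a replicate 1 peak. The run at V from 6937558 to 6942810 had 6 members with scores of 3.24 to 5.81, all in neither replicate.

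The longest stretch with no member ran over 175.8 kb, at V from 7237600 to 7413437, and no replicate peak had its midpoint in it. The next were V from 16059133 to 16203856 (144.7 kb), where replicate 1 had 1 peak, and V from 12763809 to 12865776 (102.0 kb), where neither replicate had one. They were followed by V from 7622307 to 7710093 (87.8 kb) and V from 11391281 to 11477943 (86.7 kb), both without a replicate peak. In all, 40 gaps were 50 kb or longer.

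Read from the replicates, nearly all of the strong peaks were in the series-wide list. Of the 115 replicate 1 peaks in the centre, 107 overlapped a member (93.0%, 86.8 to 96.9%), against 93.7% of all replicate 1 peaks. Of the 560 replicate 2 peaks, 485 did (86.6%, 83.5 to 89.3%), against 85.8% of all replicate 2 peaks. The 8 replicate 1 peaks without a member had a median score of 63.7, against 202 for the 107 with one. The 75 replicate 2 peaks without a member had a median score of 78.6, against 831 for the 485 with one. The highest of these 75 lay at V from 13655086 to 13657287 (2202 bp, score 329.7), and the highest of the 8 at V from 13669355 to 13671216 (1862 bp, score 89.82). Replicate peaks that overlapped several members were wider, but a wider peak can overlap more members by its width alone. In replicate 2, 417 peaks overlapped 1 member, with a median width of 986 bp, 51 overlapped 2 (1693 bp) and 17 overlapped 3 or more (2903 bp).

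The replicates were set against each other in the same way. Of the replicate 1 peaks in the centre, 102 of 115 overlapped a replicate 2 peak (88.7%, 81.4 to 93.8%), against 90.8% of all replicate 1 peaks. In the other direction it was 100 of 560 (17.9%, 14.8 to 21.3%), against 16.3% of all replicate 2 peaks. The 100 had a median score of 3100 and a median width of 1620 bp, and the other 460 had 420 and 926 bp. Among the 13 replicate 1 peaks with no replicate 2 peak the median score was 68.2, against 203 for the 102 with one.

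The 2 members just inside each boundary scored higher than the 2 peaks just outside it. Just inside the left boundary lay members at V from 5917690 to 5918096 (score 37.92) and from 5939496 to 5940095 (36.37), and just outside it peaks from 5845906 to 5846078 (5.66) and from 5851721 to 5851884 (2.51). Just inside the right boundary lay members at V from 16537811 to 16538386 (90.66) and from 16547178 to 16549118 (177.87), and just outside it peaks from 16552533 to 16552779 (14.82) and from 16553004 to 16553171 (5.98). These last 2 lay on the same replicate 2 peak, from 16552158 to 16553519. So few peaks do not describe the wider flanks. Median series-wide scores were 8.38 and 8.545 in the last 2 windows of the centre, near the 7.59 of the right arm.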

How the data were processed

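The analysed files were 3 peak lists with WormBase WS220 coordinates, per the file headers. The submitters' processing notes give the build as ce10 and name BWA as the aligner. The replicate lists name MACS as the peak caller and the series-wide list names MACS v2, per the file contents. The score of each peak is the authors' deposited value, and its scale, the threshold, the input used and any pooling of replicates are not given in the sources used here. The depth behind the peaks is unknown. No gene was assigned to a peak, because the annotation at hand is of another build.

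Peaks were assigned to a region by their midpoint and called overlapping from 1 bp. Chromosome lengths were taken as the highest peak end in any list. Intervals at 95% are exact (Poisson or Clopper-Pearson), and from order statistics for medians. Where a replicate peak is set beside a member, it is the highest-scored one that overlaps it. The peaks named were the highest-scored per overlap class, the widest, the longest runs and gaps, the densest and sparsest 100 kb windows and those next to the boundaries. The region and these lists were chosen with earlier results of these data known. Groups by score and the neighbours of wide members were added after the lists were seen. The overlap code was tested on a planted list, made of peaks copied from the series-wide list on V and cut to 1 bp. Python 3.11.15, numpy 2.4.6, pandas 2.3.3 and scipy 1.17.1 were used.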

Additional observations from a re-analysis of the deposited data

How the results depend on the processing

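The main limits are the 2 replicate lists of unequal length, the unknown depth and the unstated thresholds, and separate cultures for the replicates are not stated in the labels. Values under another setting were compared with the 95% interval of the reported value, and no result rests on a test. No paired analysis was possible because no input values entered the analysis and no result comes from a test across samples. All 9 results stayed within that interval when the centre was drawn as the middle 50% of chromosome V, and all 7 that were recomputed without the run of 24 peaks, a setting chosen after the data were seen, did too.

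With only the 50% of series-wide peaks that scored highest, density was 39.2 per Mb, the ratio of centre to rest of V 1.10 (0.951 to 1.27) in place of 0.846, the median width 457 bp and the median score 36.65. The share in at least 1 replicate was then 97.1%, in place of 79.9%, the share in both 23.5%, and the share of gaps under 2000 bp 19.2%. Members then overlapped 66.1% of replicate 2 peaks and 82.6% of replicate 1 peaks. Merging peaks less than 500 bp apart gave 56.3 per Mb, a median width of 391 bp and 19.2% of gaps under 2000 bp. A close gap of 1000 bp gave 25.4% and one of 5000 bp 48.2%. Asking for 200 bp of overlap lowered the share of replicate 2 peaks on members to 78.8% and left that of replicate 1 peaks at 93.0%. The 132 members under 200 bp wide, of which 72 were on a replicate 2 peak, cannot meet that setting. When 50% of a member had to be covered, 79.5% of members were in at least 1 replicate and 15.5% in both. The share of members in at least 1 replicate was between 18.3% and 77.5% when a replicate was left out, at 77.5% without replicate 1 and at 18.3% without replicate 2. Changes that follow from the setting's own construction aside, the cause was not tested.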
